A study of Sus scrofa with 12 samples.

Results

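NPY, NMB and SST encode the precursors of 3 small secreted peptides: neuropeptide Y, neuromedin B and somatostatin. They were taken as every probe set whose platform annotation gave one of these symbols alone, which came to 4 of 23999 probe sets and 3 of 6765 named genes, with 2 probe sets for NPY and 1 each for NMB and SST. They were measured in the endometrium, the inner lining of the uterus, on Day 14 after insemination. The groups were 3 pregnant Landrace sows (6, 8 and 10), 3 pregnant Yorkshire sows (2, 4 and 12), 3 non-pregnant Landrace sows (5, 7 and 9) and 3 non-pregnant Yorkshire sows (1, 3 and 11). All sows were inseminated, the non-pregnant ones with inactivated semen, and the sows were Landrace or Yorkshire in equal number in both states. Each array held RNA from 1 sow, taken from several places along both horns without the muscle layer, after the horns had been flushed. The genes were chosen by their differences between pregnant and non-pregnant sows on these arrays, so those differences are described here and carry no test.

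Peptides of this kind are made as larger precursors, cut by prohormone convertases inside the secretory pathway and released to act on G protein-coupled receptors of nearby cells or nerves. Neuropeptide Y is best known from sympathetic nerves, where it narrows blood vessels, and from the hypothalamus, where it promotes feeding. Neuromedin B belongs to the bombesin family and stimulates smooth muscle contraction and cell growth. Somatostatin is the general inhibitor of hormone secretion, restraining growth hormone, insulin and gut hormones. Neuropeptide Y and neuromedin B need an amide group at their carboxyl end for full activity, and somatostatin does not carry one.

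Values are log2 expression after RMA, so signal doubles with each step of 1, and they can be compared between sows for a probe set but not between probe sets. Array medians lay between 6.252 and 6.305 and lower quartiles between 4.58 and 4.71. The Pearson correlation of an array with the one most like it was 0.975 to 0.992 over probe sets, which are no independent replicates. Sow 7 (non-pregnant Landrace) had the lowest of these values, and the arrays nearest to those of pregnant sows 8 and 12 were those of non-pregnant sows 5 and 11. Differences are also given without sows 7 and 12, a choice made after seeing the data, while sow 8 was kept in those fits. Sow 12 was the lowest pregnant sow for NPY and NMB. Leaving it out therefore raises their pregnancy differences and is no check of them.

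On 1 of its 2 probe sets, NPY signal was at the low end of the array in every non-pregnant sow and higher in all pregnant sows, over a wide range. That probe set had the higher mean over 12 arrays and is called the main one here. Its log2 level was 8.98, 5.58 and 7.68 in pregnant Landrace sows 6, 8 and 10 and 6.64, 7.81 and 3.97 in pregnant Yorkshire sows 2, 4 and 12. In non-pregnant sows it was 3.78, 3.56 and 3.48 in Landrace sows 5, 7 and 9 and 3.597, 3.491 and 3.487 in Yorkshire sows 1, 3 and 11. The groups did not overlap, but pregnant sow 12 lay only just above the highest non-pregnant sow and under the lower quartile of its own array. Of all named genes, 1.54% had their 6 pregnant sows above the 6 others. The log2 level averaged 6.78 ± 1.79 in pregnant sows and 3.56 ± 0.11 in those not pregnant (SD, n = 6 each), with the wider spread in pregnancy.

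The log2 difference of NPY between pregnant and non-pregnant sows was 3.21 ± 0.64 (SE). All 6 non-pregnant values were under the lower quartile of their arrays, where little of the signal is above background, so no fold is given. The log2 difference was 3.81 ± 0.91 within Landrace and 2.62 ± 0.91 within Yorkshire sows, and 3.74 without sows 7 and 12. The order of group means was pregnant Landrace (7.41 ± 1.71), pregnant Yorkshire (6.14 ± 1.97), non-pregnant Landrace (3.605 ± 0.155) and non-pregnant Yorkshire (3.52 ± 0.06). Ranges overlapped between the breeds in pregnancy and between the breeds outside it, and not between pregnant Yorkshire and non-pregnant Landrace sows.

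The other NPY probe set did not show this pattern. Its log2 level was 5.36, 5.24 and 5.21 in pregnant Landrace and 5.28, 5.38 and 4.74 in pregnant Yorkshire sows. In non-pregnant sows it was 5.20, 5.27 and 5.06 in Landrace and 5.23, 4.98 and 4.82 in Yorkshire. The groups overlapped, and the difference between pregnant and non-pregnant sows was 0.11 ± 0.11 (SE). The main probe set stands for the gene only because its mean over 12 arrays was slightly higher, at 5.17, against 5.15 for the other. In pregnant sows it averaged 6.78, against 5.20 for the other, but in non-pregnant sows 3.56, against 5.09. Its choice thus depends on the pregnant sows, where it is high. The higher NPY level in pregnant sows therefore rests on 1 of its 2 probe sets, and why they differ was not tested.

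**Figure D1:**
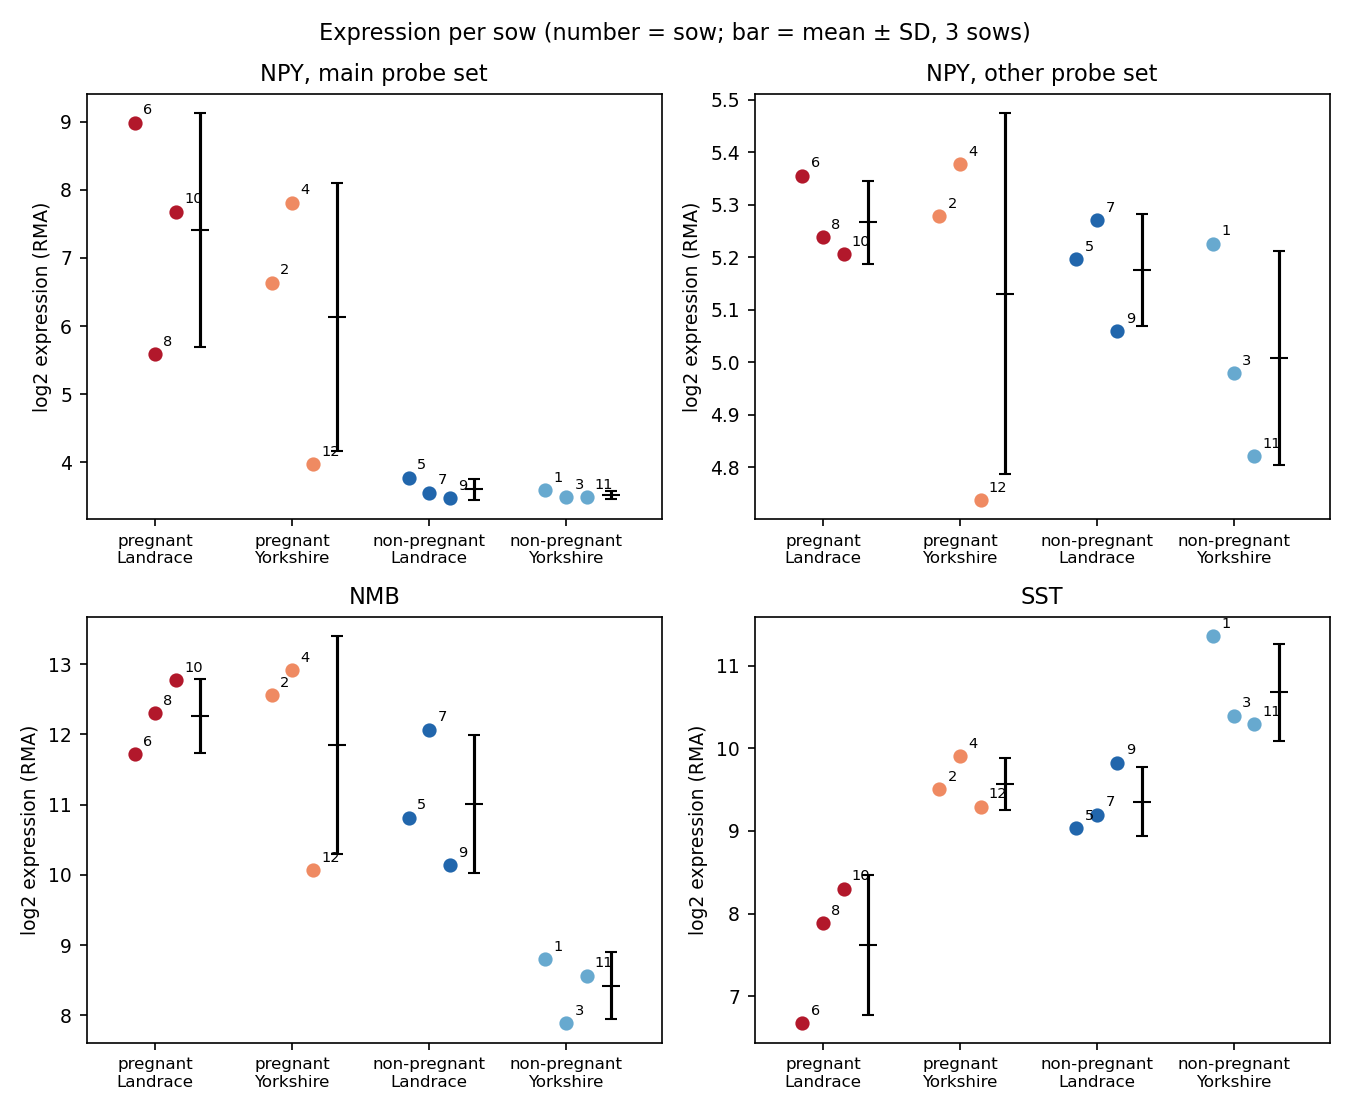
Log2 expression (vertical axis) of the 4 probe sets in each of the 12 sows, by pregnancy and breed (horizontal axis). Points are sows with their numbers, and bars are the mean ± SD of 3 sows. NPY is spread from 3.97 to 8.98 in pregnant sows on its main probe set, and SST is lowest in the 3 pregnant Landrace sows.

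NMB was high in most pregnant sows, intermediate in most non-pregnant Landrace sows and lowest in non-pregnant Yorkshire sows. Its log2 level was 11.71, 12.30 and 12.77 in pregnant Landrace sows 6, 8 and 10 and 12.56, 12.91 and 10.07 in pregnant Yorkshire sows 2, 4 and 12. In non-pregnant sows it was 10.81, 12.07 and 10.14 in Landrace sows 5, 7 and 9 and 8.80, 7.88 and 8.56 in Yorkshire sows 1, 3 and 11. The groups overlapped, because non-pregnant sow 7 was above pregnant sow 6 and pregnant sow 12 was below all 3 non-pregnant Landrace sows. All 6 pregnant sows were above the non-pregnant mean, and 4 were above every non-pregnant sow.

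The log2 difference of NMB between pregnant and non-pregnant sows was 2.34 ± 0.56 (SE), a 5.07-fold higher signal and the 10th highest among named genes. It was 1.26 ± 0.68 within Landrace and 3.43 ± 0.68 within Yorkshire sows, equal to 2.39-fold and 10.8-fold. Without sows 7 and 12 the difference over both breeds was 3.05. Group means were 12.26 ± 0.53 in pregnant Landrace, 11.85 ± 1.55 in pregnant Yorkshire, 11.01 ± 0.98 in non-pregnant Landrace and 8.42 ± 0.48 in non-pregnant Yorkshire sows (SD, n = 3 each). Each of the first 3 groups overlapped its neighbour, and the non-pregnant Yorkshire sows lay below all other sows. The share of all named genes with that separation was not computed, so it is not read as particular to NMB.

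SST went the other way, with a lower level in pregnant sows of each breed. Its log2 level was 6.67, 7.89 and 8.30 in pregnant Landrace sows 6, 8 and 10 and 9.50, 9.90 and 9.29 in pregnant Yorkshire sows 2, 4 and 12. In non-pregnant sows it was 9.03, 9.20 and 9.83 in Landrace sows 5, 7 and 9 and 11.36, 10.39 and 10.29 in Yorkshire sows 1, 3 and 11. Over both breeds the groups overlapped, but within Landrace and within Yorkshire every pregnant sow lay below every non-pregnant one, as for 5.91% of named genes. All 6 pregnant sows were below the non-pregnant mean.

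The log2 difference of SST between pregnant and non-pregnant sows was -1.42 ± 0.29 (SE), a 2.68-fold lower signal and the 26th lowest of the 6765 genes. It was -1.73 ± 0.41 within Landrace and -1.11 ± 0.41 within Yorkshire sows, and -1.39 without sows 7 and 12. Group means were 7.62 ± 0.85 in pregnant Landrace, 9.57 ± 0.31 in pregnant Yorkshire, 9.35 ± 0.42 in non-pregnant Landrace and 10.68 ± 0.59 in non-pregnant Yorkshire sows (SD, n = 3 each). The pregnant Yorkshire and non-pregnant Landrace ranges overlapped, and each other neighbouring pair in the order of levels did not. In bulk tissue, fewer cells of a type and less RNA per cell cannot be told apart.

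Breed was the second factor of the design, and SST was the member that differed by it. Landrace minus Yorkshire sows, SST had a log2 difference of -1.64 ± 0.29 (SE, limma, adjusted p = 0.00782, n = 6 each), a 3.11-fold lower signal. Of all named genes, 3.24% were called lower in Landrace, and SST had the 8th lowest difference. The difference was -1.95 among pregnant and -1.33 among non-pregnant sows, with every Landrace sow below every Yorkshire sow in both states, as for 3.73% of named genes. SST was called in all 12 fits that left out 1 sow, with adjusted p of 0.00739 to 0.0227, and without sows 7 and 12 (adjusted p = 0.0290).

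A sign of RNA integrity moved with breed and, within Landrace, with pregnancy. The GAPDH control probe set at the 3' end minus that at the 5' end, on the log2 scale, was 1.07 ± 0.139 in Landrace and 1.49 ± 0.126 in Yorkshire sows (SD, n = 6 each), at 0.869 to 1.25 and 1.31 to 1.63, without overlap. With this measure as a covariate the SST breed difference was -2.88 ± 0.67 (SE, limma, adjusted p = 0.435), and 0 probe sets were called in that fit, with 1900 at an unadjusted p under 0.05. Because its values do not overlap between breeds, the breed difference and this measure cannot be told apart. By state it was 1.15 to 1.25 in pregnant Landrace sows, against 0.869 to 1.04 in non-pregnant Landrace sows without overlap, and 1.49 to 1.59 in pregnant Yorkshire sows, against 1.31 to 1.63 in non-pregnant Yorkshire sows with overlap. With the covariate the pregnancy differences were 2.69 ± 0.88 for NPY, 2.96 ± 0.75 for NMB and -0.94 ± 0.35 for SST (SE), the last against -1.42 without it. The neuroendocrine marker sum described further on was 27.4 to 28.3 in Landrace and 27.1 to 28.3 in Yorkshire sows, and its part in the SST difference was not tested.

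**Figure D2:**
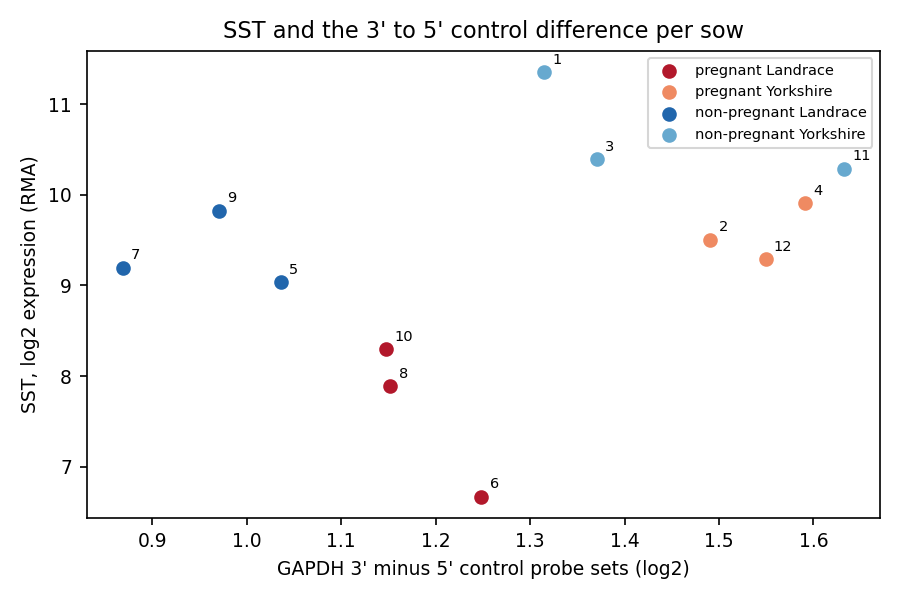
Log2 expression of SST (vertical axis) against the GAPDH 3' minus 5' control difference (log2, horizontal axis) in 12 sows, with sow numbers. The 6 Landrace sows lie between 0.869 and 1.25 on the horizontal axis, and the 6 Yorkshire sows between 1.31 and 1.63.

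NMB and NPY did not pass the threshold for breed. NMB differed by 1.502 ± 0.56 on the log2 scale between Landrace and Yorkshire sows (SE, limma, adjusted p = 0.148). That difference was 0.42 among pregnant and 2.59 among non-pregnant sows, where every Landrace sow was above every Yorkshire sow, as for 9.45% of named genes. Without sows 7 and 12 it was 0.79, and with the GAPDH measure as a covariate -0.07 ± 1.42. NPY differed by 0.68 ± 0.64 (adjusted p = 0.615) on its main probe set and by 0.15 ± 0.11 (adjusted p = 0.491) on the other. Without pregnant sow 12 the difference on the main probe set was 0.13 (adjusted p = 0.929).

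The pregnancy difference was not shown to depend on breed for any of the 3 genes. The interaction, the pregnancy difference in Landrace minus that in Yorkshire sows, was -2.17 ± 0.97 for NMB (SE, limma, unadjusted p = 0.0455, adjusted p = 0.9996). It was 1.19 ± 1.28 for NPY and -0.62 ± 0.57 for SST, each also at an adjusted p of 0.9996. No probe set was called for the interaction in limma (0 of 23999, with 963, or 4.01%, at an unadjusted p under 0.05). The NMB value was -3.06 without sow 12 (adjusted p = 0.202) and -1.64 without sow 7 (adjusted p = 1). Without both sows it was -2.53 (limma, adjusted p = 0.134).

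**Figure D3:**
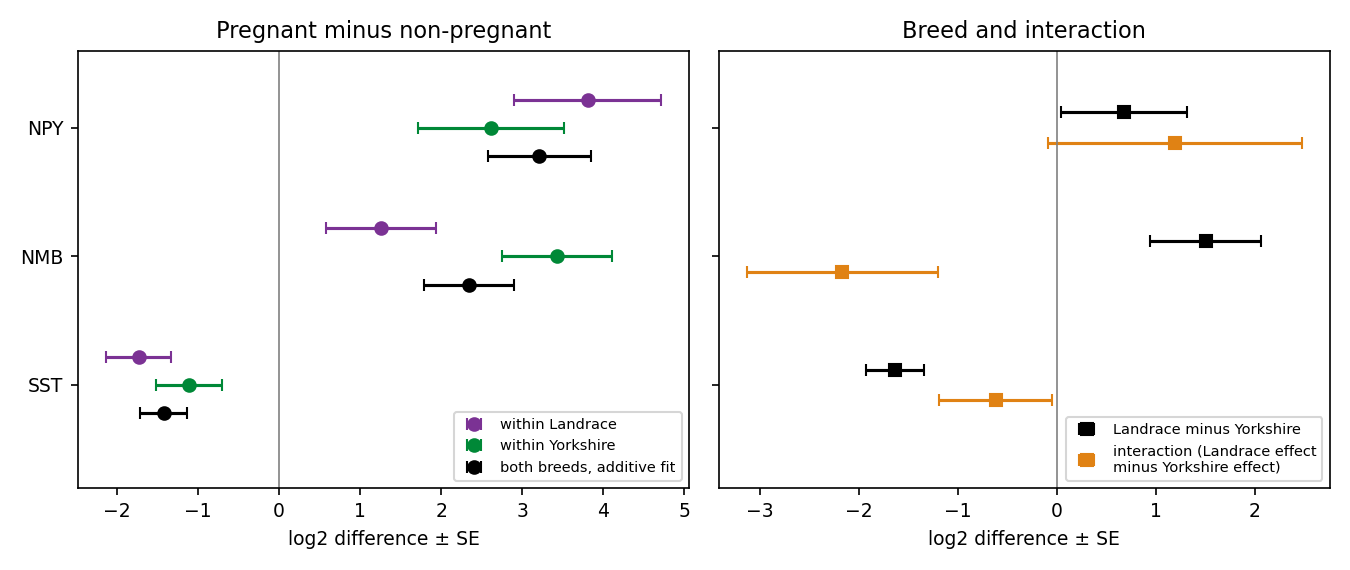
Log2 differences ± SE (horizontal axis) of NPY, NMB and SST (vertical axis). The left panel gives pregnant minus non-pregnant sows within each breed and over both, and the right panel gives Landrace minus Yorkshire sows and the interaction. NMB has the widest gap between breeds, 1.26 in Landrace and 3.43 in Yorkshire sows, and SST lies below 0 in every contrast.

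The 3 genes did not rank the pregnant sows alike. Sow 12 was lowest for NPY and NMB, but for SST the lowest was sow 6, which was highest for NPY. Across the 6 pregnant sows, NPY and NMB correlated at Pearson's r of 0.63 (exact permutation p = 0.174, two-sided) and Spearman's rho of 0.43 (exact permutation p = 0.419). These were among 6 relations computed within a state, with adjusted p of 0.521 and 0.746. Without sows 6 and 12, the farthest from the NPY median, r was 0.99 over the remaining 4. Those 4 were picked by their NPY values and are too few for a test, so a relation was not shown. Relations with SST are not given, because its values fell into separate breed clusters in both states.

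No measured receptor gene passed the threshold. The NPY and somatostatin lists held 9 and 7 genes, of which 5 and 4 were measured, NPY and SST included. NPY5R, SSTR2 and SSTR4 had no probe set with that symbol alone and were not analysed. Of 7 measured receptor and family genes of the NPY and somatostatin systems, none was called by limma (1 in each family at an unadjusted p under 0.05, which 31.3% of all named genes passed), against 4.58% of all named genes called higher and 7.48% called lower in pregnant sows. NPY1R, the vascular neuropeptide Y receptor, averaged a log2 level of 5.95 ± 0.29 in pregnant sows, against 5.45 ± 0.37 in non-pregnant sows (SD, n = 6 for both). Its difference was 0.50 ± 0.15 (SE, limma, adjusted p = 0.0582), with 6 of 6 pregnant sows above the non-pregnant mean, and it was called without sow 4 (adjusted p = 0.0334), without sow 11 (0.0455) or with array weights (0.0337). The somatostatin receptor SSTR3 differed by 0.21 ± 0.07 (adjusted p = 0.0933) and was called without sow 12 (adjusted p = 0.0287) or with array weights (0.0301). Its other, dimmer probe set differed by 0.02 ± 0.07 (adjusted p = 0.925).

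The remaining measured receptor genes differed less. SSTR1 differed by 0.12 ± 0.07 and SSTR5 by 0.02 ± 0.07 on the log2 scale (SE, limma, adjusted p = 0.351 and 0.883). Their dimmer probe sets differed by 0.04 and 0.09 (adjusted p = 0.771 and 0.547). NPY2R, the receptor that restrains transmitter release from nerve endings, differed by 0.01 ± 0.12 (adjusted p = 0.969) and lay below the lower quartile on 9 arrays. PPYR1, the receptor for pancreatic polypeptide, and the PPY peptide itself lay there on all 12 arrays, with differences of 0.09 ± 0.08 and 0.02 ± 0.08 (adjusted p = 0.560 and 0.930). The signs of NPY2R and PPY turned with cyclic loess or median centring. For the bombesin family NMB was the only one of 5 listed genes with a symbol on the array, so its receptors were not analysed here.

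Of 14 measured genes that process prohormones or fill secretory granules, PAM rose and none fell, which is 7.14% of them, against 4.58% called higher and 7.48% called lower over all named genes. At an unadjusted p under 0.05 there were 2 of the 14, against 31.3% of all named genes. PAM makes the carboxyl amide that neuropeptide Y and neuromedin B carry. Its log2 level was 10.51, 10.04 and 10.36 in pregnant Landrace and 10.10, 9.93 and 10.22 in pregnant Yorkshire sows. In non-pregnant sows it was 9.39, 9.32 and 9.51 in Landrace and 9.46, 9.12 and 10.06 in Yorkshire. The groups overlapped through non-pregnant sow 11 alone, and the difference was 0.72 ± 0.15 (SE, limma, adjusted p = 0.0155, 1.64-fold), called in all 12 fits that left out 1 sow. The list median was 0.04, against -0.03 over all named genes. Of the 14, 4 were below the lower quartile on every array, the granule proteins CHGB, SCG2 and SCG3 among them.

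Of 16 measured peptidases that cut peptides outside or inside cells, 2 rose (12.5%, against 4.58% of all named genes) and none fell (7.48% of all named genes), with 7 at an unadjusted p under 0.05 (31.3% of all named genes). TPP1, a lysosomal peptidase, rose by 0.37 ± 0.07 on the log2 scale (SE, limma, adjusted p = 0.0130, 5 of 6 pregnant sows above the non-pregnant mean) and was called in all 12 fits that left out 1 sow, but not without the breed term (adjusted p = 0.383). Its other, dimmer probe set differed by 0.07 (adjusted p = 0.735). ENPEP, the aminopeptidase that trims angiotensin, rose by 0.83 ± 0.23 (adjusted p = 0.0496, 6 of 6 sows), but was below the lower quartile on 10 arrays. Its call ended on removal of any 1 of sows 1, 2, 3, 4, 5, 6, 9, 10 and 11 (adjusted p at most 0.113). It also ended with cyclic loess (adjusted p = 0.0572), median centring (0.0533), an intensity trend (0.0591) or no breed term (0.0578). DPP4, which removes the first residues of neuropeptide Y, was chosen after its values were seen and differed by 0.56 ± 0.25 (adjusted p = 0.208). The list median was 0.05.

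Of 15 measured G protein subunits and effectors through which these receptors act, 1 rose and 1 fell (6.67% each way, against 4.58% and 7.48% of all named genes). GNAI1, the inhibitory G protein subunit to which neuropeptide Y and somatostatin receptors couple, had log2 levels of 8.62 to 9.35 in pregnant and 7.81 to 8.36 in non-pregnant sows. Its pregnant sows all lay above the non-pregnant ones, as for 1.54% of named genes. It rose by 0.86 ± 0.13 (SE, limma, adjusted p = 0.00614), although a second probe set near background differed by 0.05 (adjusted p = 0.711). RGS4, which shortens signalling of the inhibitory and Gq classes of G protein, had log2 levels of 5.74 to 7.50 in pregnant and 6.40 to 8.77 in non-pregnant sows. It fell by 1.62 ± 0.35 on the log2 scale (SE, limma, adjusted p = 0.0185), with 6 of 6 pregnant sows under the mean of the others. Both were called in each fit that left out 1 sow, and the list median was 0.06.

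Of 47 other peptide hormones measured, 2 rose (4.26%, against 4.58% of all named genes) and none fell (7.48% of all named genes). At an unadjusted p under 0.05 there were 5, against 31.3% of all named genes. PTHLH, the parathyroid hormone-like peptide, rose by 1.95 ± 0.38 on the log2 scale (SE, limma, adjusted p = 0.0127, 6 of 6 sows above the non-pregnant mean). STC1, a secreted hormone that regulates calcium and phosphate, rose by 2.29 ± 0.58 (adjusted p = 0.0332, 5 of 6 sows), and its call ended without any 1 of sows 2, 3, 4, 5, 6, 9, 10 and 11, with adjusted p up to 0.0781. Its second probe set rose by 2.18 (adjusted p = 0.0164) and another differed by 0.27 (adjusted p = 0.169). Without the breed term neither was called (adjusted p = 0.0523 for PTHLH and 0.136 for STC1). The list median was 0.04, and 12 of the 47 genes lay below the lower quartile on every array.

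**Figure D4:**
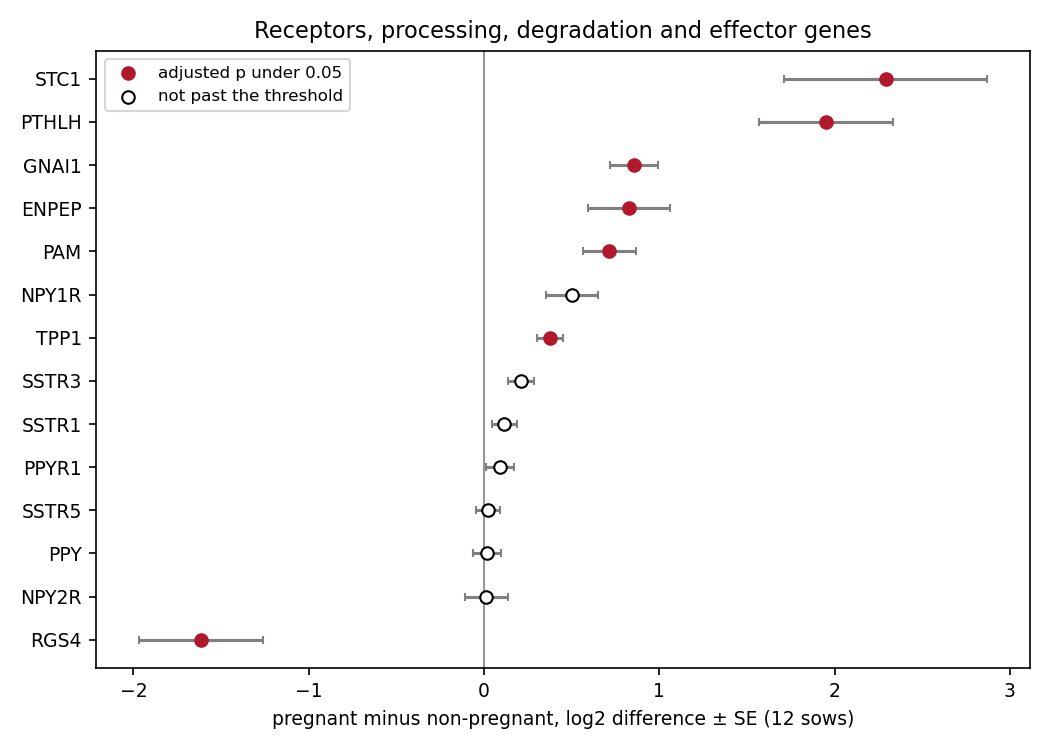
Log2 differences between pregnant and non-pregnant sows ± SE (horizontal axis) of the named genes of the lists (vertical axis), over 12 sows. Filled points passed an adjusted p of 0.05. The receptor genes lie between 0.01 and 0.50, while RGS4 lies at -1.62 and STC1 at 2.29.

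Markers of the cell types that could carry these peptides were set beside them as the summed log2 level of each list per sow. Over all named genes, 4.58% were called higher and 7.48% lower in pregnant sows. In lists this short, few or no calls therefore do not show that a cell type was unchanged. Of 9 measured markers of autonomic neurons none was called, the sum was 40.7 to 43.0 in pregnant and 40.6 to 42.0 in non-pregnant sows, and ELAVL4, STMN2, SNAP25, NEFL and CHAT were below the lower quartile on every array. For 6 neuroendocrine markers, also with none called, it was 27.2 to 28.3 in pregnant and 27.1 to 27.8 in non-pregnant sows, with CHGB, NEUROD1, SCG2 and SCG3 below that quartile. Of 6 glial markers S100B alone rose, with sums of 37.7 to 39.8 in pregnant and 37.3 to 37.9 in non-pregnant sows and MAG and FABP7 below the quartile. Platelet markers (5, none called) summed to 29.7 to 31.8 in pregnant and 29.0 to 31.1 in non-pregnant sows, with PPBP below it.

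Of 13 markers of the conceptus trophoblast, the outer cell layer of the embryo, CYP19A3 fell and none rose. CYP19A3 was at 7.62 to 7.89 in pregnant and 7.81 to 8.29 in non-pregnant sows. Its signal was thus present without a conceptus, and its fall is not read as less trophoblast. The sum was 72.4 to 94.8 in pregnant and 70.7 to 79.1 in non-pregnant sows, and STAR was below the quartile on every array. IFNG, which the pig conceptus secretes, had a log2 level of 12.65 in pregnant sow 10 and 8.21 in sow 6, against at most 4.26 in the other pregnant sows and 4.41 in non-pregnant sows. Without sow 10 the pregnancy differences of NPY, NMB and SST were 3.09, 2.35 and -1.54, and without sow 6 they were 2.80, 2.59 and -1.18. NPY was 8.98 and 7.68 in sows 6 and 10. It was 6.64 and 7.81 in sows 2 and 4, where IFNG was at 4.199 and 4.112. In sows 8 and 12, with IFNG at 4.26 and 4.00, NPY was lowest of the pregnant sows, at 5.58 and 3.97. The part of conceptus RNA in the NPY difference was not tested.

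The other marker lists can be read against the same shares, 4.58% of all named genes called higher and 7.48% called lower. Of 9 endothelial markers 7 rose, with sums of 64.2 to 69.2 in pregnant and 58.2 to 62.8 in non-pregnant sows. Of 11 epithelial markers 1 rose and 2 fell (102 to 110 in pregnant, 108 to 110 in non-pregnant sows), and of 9 stromal markers 4 rose and 1 fell (83.8 to 89.7 in pregnant, 82.1 to 86.0 in non-pregnant sows). Of 8 smooth muscle markers 1 rose (69.1 to 74.0 in pregnant, 66.4 to 69.7 in non-pregnant sows), and of 8 leukocyte markers none was called (44.6 to 46.9 in pregnant, 43.4 to 56.8 in non-pregnant sows), with sow 7 the highest and ITGAM below the quartile. The part of these cell types in the NPY, NMB and SST differences was not tested. EPCAM and VIM, which mark epithelium and stroma, were at log2 levels of at least 11.1 and 11.6 in every sow. These levels do not show equal shares of the tissue. VIM rose by 0.65 ± 0.09 in pregnant sows (SE, limma, adjusted p = 0.00468), while EPCAM differed by -0.14 ± 0.09 (adjusted p = 0.372). ESR1, on the same stromal list as VIM, fell, with a difference of -0.58 ± 0.14 (SE, limma, adjusted p = 0.0257). PGR of that list differed by -0.11 (adjusted p = 0.398). The epithelial marker KRT8 fell by 0.83 ± 0.22 (adjusted p = 0.0422). KRT18 and FOXA2 differed by -0.59 and -0.55 without passing the threshold (adjusted p = 0.113 and 0.0828). Called members of both lists went both ways, so the genes named here do not show a shift between epithelium and stroma.

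The genes most like each peptide gene were found by Pearson's correlation over the 12 sows, among 678 genes with an SD of at least 0.5. For NPY they were GOLM1 (r = 0.96), FGF9 (0.93), NUP133 (0.93), CLDN11 (0.93) and NDFIP1 (0.92), and the most opposite were TMEM100 (-0.96), LOC100157017 (-0.95) and SLC25A1 (-0.94). For NMB they were SLC5A6 (0.96), TFRC (0.94), FYN (0.94), CFD (0.94) and SOD3 (0.93), with PRELP (-0.96), GOT1 (-0.96) and HSPB1 (-0.93) most opposite. For SST they were CLIC1 (0.88), SLC2A8 (0.87), KIF5C (0.87), KCNE3 (0.86) and ID2 (0.86), with METTL2A (-0.91), ASS1 (-0.88) and GPX3 (-0.85) most opposite. These values are descriptions and carry no test, since the 12 points share their pregnancy and breed groups.

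The likeness was also computed within groups. After the 4 group means had been subtracted, GOLM1 correlated with NPY at 0.92, along with FXYD3 (0.92), GPRC5B (0.89), SLC2A1 (0.88) and FAM13A (0.86). All genes named here are the highest picked among the same 678 and carry no test. For NPY they rest mainly on the pregnant sows, as its SD was 1.79 in these and 0.11 in non-pregnant sows. NMB was then followed by EFHD1 (0.94), FA2H (0.94), TRAF3IP2 (0.93), GLB1 (0.91) and SLC46A3 (0.90). For SST the highest was SSH1 (0.78), then FAM107B (0.77), SH3BGRL2 (0.65), NDUFA1 (0.59) and PHGDH (0.58). Over all 12 sows SSH1 was at 0.48, but FAM107B (-0.37), SH3BGRL2 (-0.20), NDUFA1 (-0.16) and PHGDH (-0.18) were negative. The 5 genes most like SST over all sows were at 0.12 to 0.45 within groups. METTL2A, the most opposite to SST over all sows, was at -0.63 within groups, ASS1 at -0.21 and GPX3 at -0.19.

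**Figure D5:**
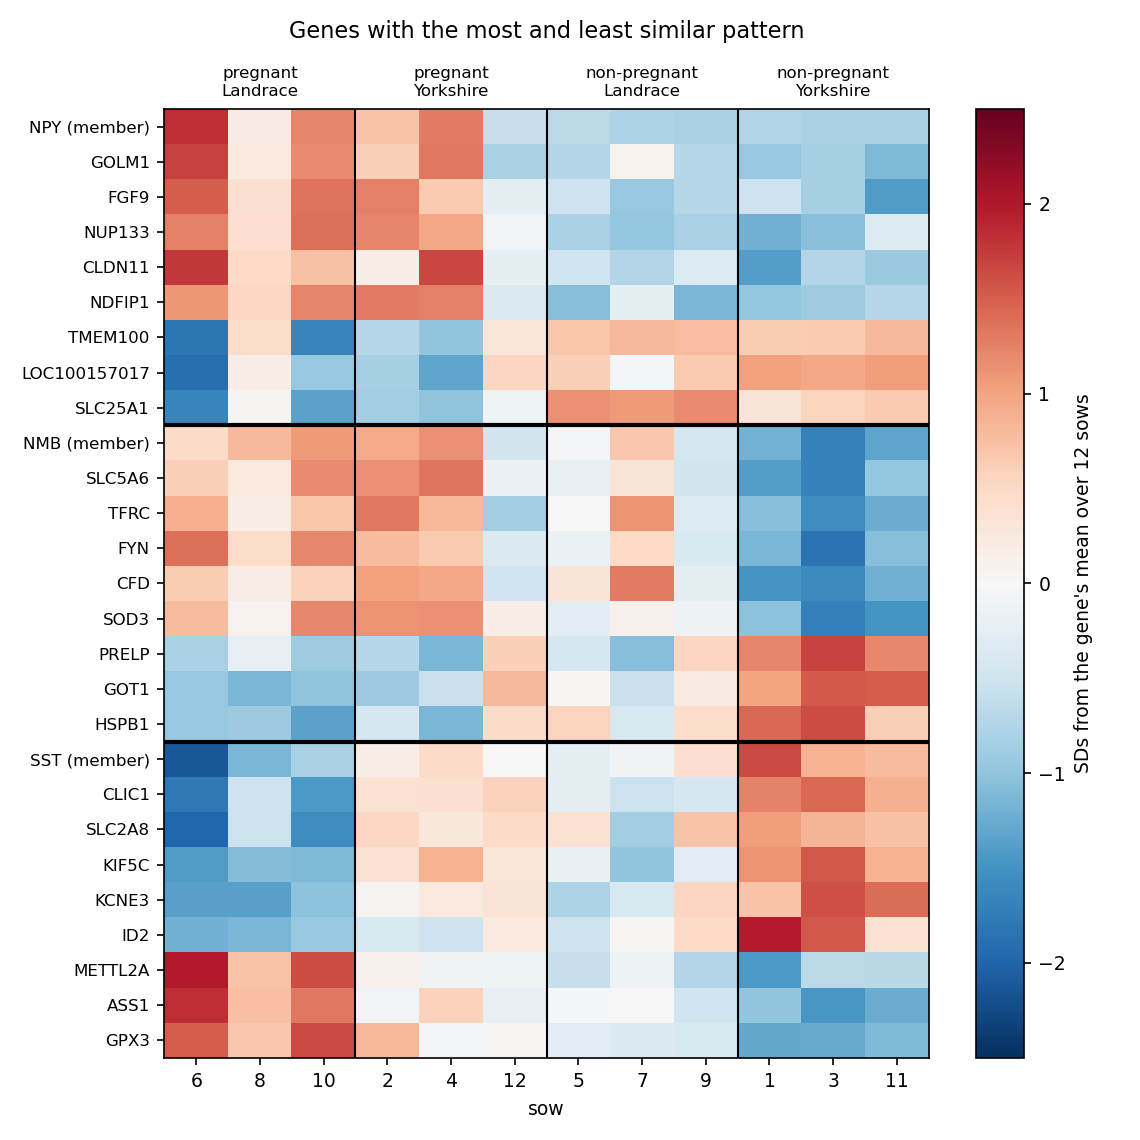
Expression in SDs from each gene's mean (colour), for 12 sows (horizontal axis) in 4 groups. NPY, NMB and SST each stand above the 5 genes most like them and the 3 most opposite. For NPY, sow 12 sits with the non-pregnant sows, and for SST the 3 pregnant Landrace sows stand at one end and the 3 non-pregnant Yorkshire sows at the other.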

How the data were processed

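The deposited values are log2 expression per probe set, and RMA, affy and limma are named without versions in the submitters' processing notes. RMA makes the arrays' distributions alike, so each difference is relative to the rest of the array. The table held 24123 rows. After 124 manufacturer controls were left out, 23999 were tested, of which 10069 had 1 gene symbol, 198 several and 13732 none. The probe set with the highest mean stood for each of 6765 genes.

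Tests used limma 3.58.1 under R 4.3.3 (linear fits with eBayes moderation, two-sided, Benjamini-Hochberg adjustment over 23999 probe sets, threshold 0.05). Pregnancy and breed were additive terms (9 residual degrees of freedom), and the interaction came from a fit of 4 groups (8). The code was tested on simulated data. The number of arrays limits the precision, and each sow is 1 replicate. The 3 genes, the 7 gene lists, the 10 cell type lists and the tests were chosen with earlier results of these data known. Genes were named by rule: the receptor and family genes and the called genes of the other lists. For each member the rule added the 5 most correlated and 3 most opposite genes over all sows, and the 5 most correlated within groups. DPP4 and CCK were named after their values were seen. Alternatives covered scaling, filtering, fit settings and left-out sows. The genome build of the array design is not given in the sources used here, and coordinates are left out.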

Additional observations from a re-analysis of the deposited data

Results flagged for a closer look

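Among 36 groups of 6 sows, 4 held a sow far from the nearest other, and chance flags about 5% of such groups. For the second NPY probe set, pregnant sow 12 was at a log2 level of 4.738, with the nearest pregnant sow at 5.206. For STC1, pregnant sow 12 was at 7.373, with the nearest at 10.38. For PPYR1, which lay below the lower quartile on all 12 arrays, pregnant sow 2 was at 3.529, with the nearest at 3.791. For RGS4, non-pregnant sow 7 was at 6.404, with the nearest at 7.915.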

How the results depend on the processing

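The pregnancy differences of NMB, SST and the main NPY probe set kept their direction under the alternatives run, while the other NPY probe set did not differ beyond its error. Leaving out 1 sow at a time gave 2.798 to 3.761 for NPY, 1.986 to 2.700 for NMB and -1.544 to -1.178 for SST, and breed differences of 0.129 to 1.018, 1.146 to 1.859 and -1.778 to -1.393. The interactions ranged over 0.1102 to 2.11, -3.061 to -1.641 and -0.9611 to -0.146. The pregnancy difference of NPY was 0.1068 ± 0.109 (SE) on its other probe set, and that of NMB was 1.257 within Landrace and 3.43 within Yorkshire sows. The breed difference of NMB was 0.416 among pregnant and 2.589 among non-pregnant sows. With the GAPDH difference as a covariate, chosen after seeing the data, it reversed to -0.07145, and that of SST was -2.881 without passing the threshold (limma, adjusted p = 0.435). With the same covariate the pregnancy differences were 2.687 for NPY, 2.958 for NMB and -0.9379 for SST. Leaving out sows 7 and 12 was also chosen after seeing the data. The causes of these changes were not tested.

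Counts of called probe sets, 947 higher and 945 lower in pregnant sows, were 1697 and 1943 with array weights, 579 and 586 without the breed term, and 1492 and 1721 without sows 7 and 12. Leaving out 1 sow gave 514 to 1201 higher and 437 to 1425 lower for pregnancy, 332 to 613 higher and 465 to 729 lower for breed, and 0 to 2 higher and 0 to 16 lower for the interaction. Without sows 7 and 12, 439 were lower by breed, with 2 higher and 27 lower for the interaction, and array weights gave 2 lower for the interaction.

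For the lists, cyclic loess and the filter on dim probe sets each gave 2 processing genes and 1 peptidase higher, and median centring or the intensity trend gave 1 peptidase higher. Array weights gave 1 NPY family, 1 somatostatin family, 2 processing, 4 other hormone and 2 effector genes higher and 2 peptidases lower. Without the breed term, 0 peptidases and 0 other hormones were higher. Without sows 7 and 12, 1 somatostatin family gene and 4 other hormones were higher and 2 peptidases lower. Leaving out 1 sow gave 0 to 1 higher in the NPY and somatostatin families, 1 to 2 processing genes higher and 0 to 1 lower, 1 to 2 peptidases higher and 0 to 2 lower, and 1 to 3 other hormones higher and 0 to 1 lower. Differences near 0 changed sign for PPY (-0.006655 with loess, -0.000504 with centring, -0.03582 to 0.0592 without 1 sow), NPY2R (-0.01351, -0.005154, -0.05652 to 0.06817) and SSTR5 (-0.002714 to 0.05231 without 1 sow).

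No paired analysis was possible because the sow numbers are not shared between groups. RMA values hold no read depth, and levels below the lower quartile hold little signal over background.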

Other observations

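Cholecystokinin (CCK), a gut and brain peptide chosen after its values were seen, had log2 levels of 5.03, 6.17 and 5.67 in pregnant Landrace sows 6, 8 and 10 and 5.44, 5.25 and 6.81 in pregnant Yorkshire sows 2, 4 and 12. In non-pregnant sows it was 5.91, 6.01 and 5.64 in Landrace sows 5, 7 and 9 and 8.13, 9.92 and 8.53 in Yorkshire sows 1, 3 and 11. The 3 non-pregnant Yorkshire sows lay above all others, and the share of all named genes with that separation was not computed. The pregnancy difference of CCK was -1.63 ± 0.52 (SE, limma, adjusted p = 0.0775) and the interaction 2.79 (adjusted p = 0.961), neither past the threshold.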
